A study of Homo sapiens with 52 samples.

Results

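The transcripts of 7 histone deacetylase (HDAC) genes, the possible targets of the HDAC inhibitors applied in the study, were followed through 52 RNA-seq libraries of fusion-positive rhabdomyosarcoma (FP-RMS) cells. The members were picked by gene name, 7 of 27043 names in each table, and comprised class I (HDAC1, HDAC2, HDAC3 and HDAC8), class IIb (HDAC6 and HDAC10) and class IV (HDAC11). All 7 reached a TPM of 1 (TPM counts transcripts, scaled to a fixed total per library) in 52 of 52 libraries and passed the filter on low values. FP-RMS is a childhood muscle-lineage cancer, and the labels describe every sample as a cell line carrying the PAX3-FOXO1 fusion. A screen exposed cells for 6 h to 20 compounds at a low and a 10-fold higher dose, with 1 library per dose, beside 4 libraries of the solvent DMSO, of which 2 had 0.1% and 2 had 0.2%. The 5 HDAC inhibitors of the screen were LAQ824 (target label HDAC) at 0.5 and 5 µM, and WT161 (HDAC6), MC1568 (HDAC4/5), Merck60 (HDAC1/2) and OJI-1 (HDAC8), each at 1 and 10 µM. The other 15 compounds were labelled for other targets: bromosporin, Cpd50, EZ-005, GSKJ4, GSKLSD1, LSD-519, LSD-690, PFI-2, PFI-3, SGC0946, SGC-CBP30, trametinib, UNC0638, UNC-1215 and UNC1999. They were also given at 1 and 10 µM, except Cpd50 and GSKJ4 at 0.5 and 5 µM. Outside the screen, 1 µM N1302 (HDAC) was set beside 1 DMSO library at 6 h, and 1 µM entinostat beside DMSO at 1, 6 and 24 h, with 1 library each. Screen titles name the line RH41 while the cell line field says RH4, and the N1302 and entinostat titles name RH4, so no test crossed these experiments.

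HDACs remove acetyl groups from lysines. The class I enzymes HDAC1 and HDAC2 act mainly in the nucleus as the catalytic subunits of the NuRD, SIN3, CoREST and MiDAC complexes, HDAC3 works in the NCoR/SMRT corepressor complex, and HDAC8 works without such a complex and deacetylates the cohesin subunit SMC3. The class IIb enzymes act largely in the cytoplasm, where HDAC6 deacetylates tubulin and HDAC10 deacetylates acetylated polyamines. HDAC11, the sole class IV enzyme, removes long fatty acyl groups. Zinc-chelating inhibitors block the enzymes, and transcript levels do not measure that block: what is described here is how much message for each enzyme the cells held.

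All members are annotated as protein coding, with gene-level rows in build hg19. The row spans are given here, and that of HDAC2 is shorter than its GENCODE gene, from 114254192 to 114332472. HDAC1 lies on chromosome 1 from 32757708 to 32799224 on the plus strand, HDAC2 on chromosome 6 from 114257320 to 114292359 on the minus strand, and HDAC3 on chromosome 5 from 141000443 to 141016423 on the minus strand. HDAC8 spans chromosome X from 71549366 to 71792953 on the minus strand, HDAC6 chromosome X from 48659784 to 48683392 on the plus strand, HDAC10 chromosome 22 from 50683613 to 50689834 on the minus strand, and HDAC11 chromosome 3 from 13521715 to 13547924 on the plus strand. In GENCODE, HDAC10 overlaps MAPK12 on the same strand, HDAC8 overlaps a protein-coding model and a small nuclear RNA on the same strand, and HDAC2, HDAC3 and HDAC10 each overlap a long noncoding RNA on the opposite strand. Whether the counting used strand was not given in the sources used here, so reads shared with these neighbors cannot be told apart.

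The 250 bases before the transcription start are shown for the 4 class I genes, because under LAQ824 the pairs HDAC1 and HDAC2, and HDAC3 and HDAC8, moved in opposite directions. The sequences are RefSeq promoter windows of GRCh38.p14, each found exactly once in GRCh37, whose coordinates are given: HDAC1 at chr1:32757434-32757683 (plus), HDAC2 at chr6:114292313-114292562 (minus), HDAC3 at chr5:141016417-141016666 (minus) and HDAC8 at chrX:71792694-71792943 (minus). They read 5′ to 3′ on the gene's strand, and capitals mark the GC box GGGCGG and the CCAAT box CCAAT on either strand.
HDAC1: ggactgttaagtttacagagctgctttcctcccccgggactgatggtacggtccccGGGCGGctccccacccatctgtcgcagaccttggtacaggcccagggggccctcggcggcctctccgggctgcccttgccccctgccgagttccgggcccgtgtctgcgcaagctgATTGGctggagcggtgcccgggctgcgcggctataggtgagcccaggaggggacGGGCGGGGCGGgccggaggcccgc
HDAC2: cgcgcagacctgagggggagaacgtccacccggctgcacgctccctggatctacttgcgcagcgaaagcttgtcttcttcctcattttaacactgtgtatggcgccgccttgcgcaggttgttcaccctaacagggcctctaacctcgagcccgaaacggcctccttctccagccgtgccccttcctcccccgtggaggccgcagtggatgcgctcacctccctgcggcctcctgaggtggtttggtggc
HDAC3: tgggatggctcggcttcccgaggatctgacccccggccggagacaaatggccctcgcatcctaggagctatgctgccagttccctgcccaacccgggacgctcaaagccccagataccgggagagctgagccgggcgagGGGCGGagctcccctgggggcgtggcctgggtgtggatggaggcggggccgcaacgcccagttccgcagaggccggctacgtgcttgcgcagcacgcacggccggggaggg
HDAC8: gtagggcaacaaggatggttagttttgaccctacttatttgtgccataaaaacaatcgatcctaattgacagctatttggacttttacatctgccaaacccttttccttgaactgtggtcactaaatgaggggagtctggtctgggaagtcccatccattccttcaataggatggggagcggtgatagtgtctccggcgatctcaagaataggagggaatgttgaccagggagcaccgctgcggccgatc
The HDAC1 window held 3 GC boxes, of which 2 adjoin near its end, and 1 CCAAT box, and was 71.6% G or C. The HDAC3 window held 1 GC box at 70.8% G or C, and the HDAC2 window none of these letters at 63.2%. The HDAC8 window had neither box, 48.0% G or C and 7 CpG dinucleotides, below the median of 58.0% and 11 over 35116 RefSeq windows of the same length, whereas the other 3 were above it, with 21 CpG for HDAC1, 18 for HDAC2 and 22 for HDAC3. It lies inside the gene span of the files, whose edge is 260 bases upstream of the RefSeq start. Over all 7 members, 5 had a window with a GC box, which 42.6% of all windows hold, and 3 had one with a CCAAT box, which 32.0% hold. A member counted if any of its windows held the box, whereas the shares count single windows. HDAC6 has more than 1 window and held the CCAAT box only in those of start sites further inside the gene. The TATA box TATAAA, present in 10.7% of windows, was found in 0 members. These matches describe the letters in the windows and nothing more.

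Per library, between 5737939 and 41415071 reads lay behind the TPM values, and the smallest number of reads behind any member in the screen was 52, for HDAC8 under 10 µM bromosporin. WT161, Merck60 and OJI-1 were sequenced on a flow cell named C5JW5ACXX in the files, with 28 libraries, a median of 10571890.5 reads and 0 DMSO libraries, whereas LAQ824 and MC1568 shared a flow cell with 2 DMSO libraries. For this reason the screen values are also given within flow cell: LAQ824 and MC1568 against those 2 DMSO libraries, the other 3 against the 11 non-HDAC compounds of their own flow cell. Genes called within flow cell made up 68.3% for LAQ824, 33.9% for WT161, 49% for MC1568, 0.00611% for Merck60 and 0.202% for OJI-1. Among the DMSO libraries over 10378 genes, the variance between concentrations was on average 3.55 times that of counting noise. The variance between flow cells was 4.08 times it and that of their interaction 1.02 times. Based on the median gene, the ratios were 2.47, 2.21 and 1.03. With flow cell allowed for, libraries of 1 concentration differed by no more than counting noise, so each concentration was taken as a single sample (n = 2). A limma fit that took the 4 libraries as separate samples, with 2 residual degrees of freedom, called 0 of 7 members and 0 of 16359 genes between 0.2% and 0.1% DMSO (percent called 0), 1548 genes having an unadjusted p below 0.05. With 1 sample per concentration by the count above, this says nothing about whether the concentrations differ. Of 10 FP-RMS markers in screen DMSO, 9 lay between 23.7 TPM (the lowest, for NOS1) and 981 TPM (the highest, for FGFR4), with MYOD1 at 640 to 648 TPM, and CDH3 was near 0 at 0.281 to 0.389 TPM. The 8 markers of blood, endothelial, epithelial and liver cells reached at most 2.99 TPM in any library.

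In solvent, HDAC1, HDAC2 and HDAC3 transcripts predominated. As these are bulk libraries, fewer cells holding a transcript and less of it per cell cannot be told apart. In screen DMSO, HDAC1 was present at 226 ± 0.198 TPM, HDAC2 at 150.2 ± 3.94, HDAC3 at 87.6 ± 5.18, HDAC11 at 43.97 ± 0.0329, HDAC6 at 30.8 ± 0.198, HDAC10 at 23.6 ± 0.506 and HDAC8 at 15.4 ± 0.421 (SD, n = 2 concentrations). HDAC1 alone made up 39.1% of the 577 TPM of the 7 genes and HDAC8 made up 2.67%. TPM is scaled by length, so this order is one of transcript number, and no neighbors in it overlapped in the 4 DMSO libraries: HDAC1 lay between 217 and 234 TPM and HDAC2 between 143 and 160, and at the low end HDAC10 lay between 22.9 and 25.1 and HDAC8 between 14.3 and 16.3. The target labels of the screen thus name genes from the most abundant (HDAC1) to the least abundant (HDAC8) of the group in these controls.

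The DMSO libraries titled RH4 had the same leading genes except in 1 library. In the 3 time-course controls HDAC1 lay between 274 and 296 TPM, HDAC2 between 178 and 187 TPM and HDAC3 between 93.3 and 97.5 TPM. HDAC8 lay between 28.8 and 31.7 TPM there, above the 16.3 TPM that was its highest value in screen DMSO. HDAC10, at 19.5, 25.0 and 28.7 TPM at 1, 6 and 24 h, was the lowest member in each of these controls, in place of HDAC8. The DMSO library of the N1302 experiment stood apart from the other RH4-titled controls, with HDAC2 at 254 TPM above HDAC1 at 216 TPM, HDAC3 at 69.3 TPM, HDAC6 at 13.98 TPM and HDAC10 at 4.34 TPM. Line, flow cell and experiment cannot be told apart in these differences.

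**Figure D1:**
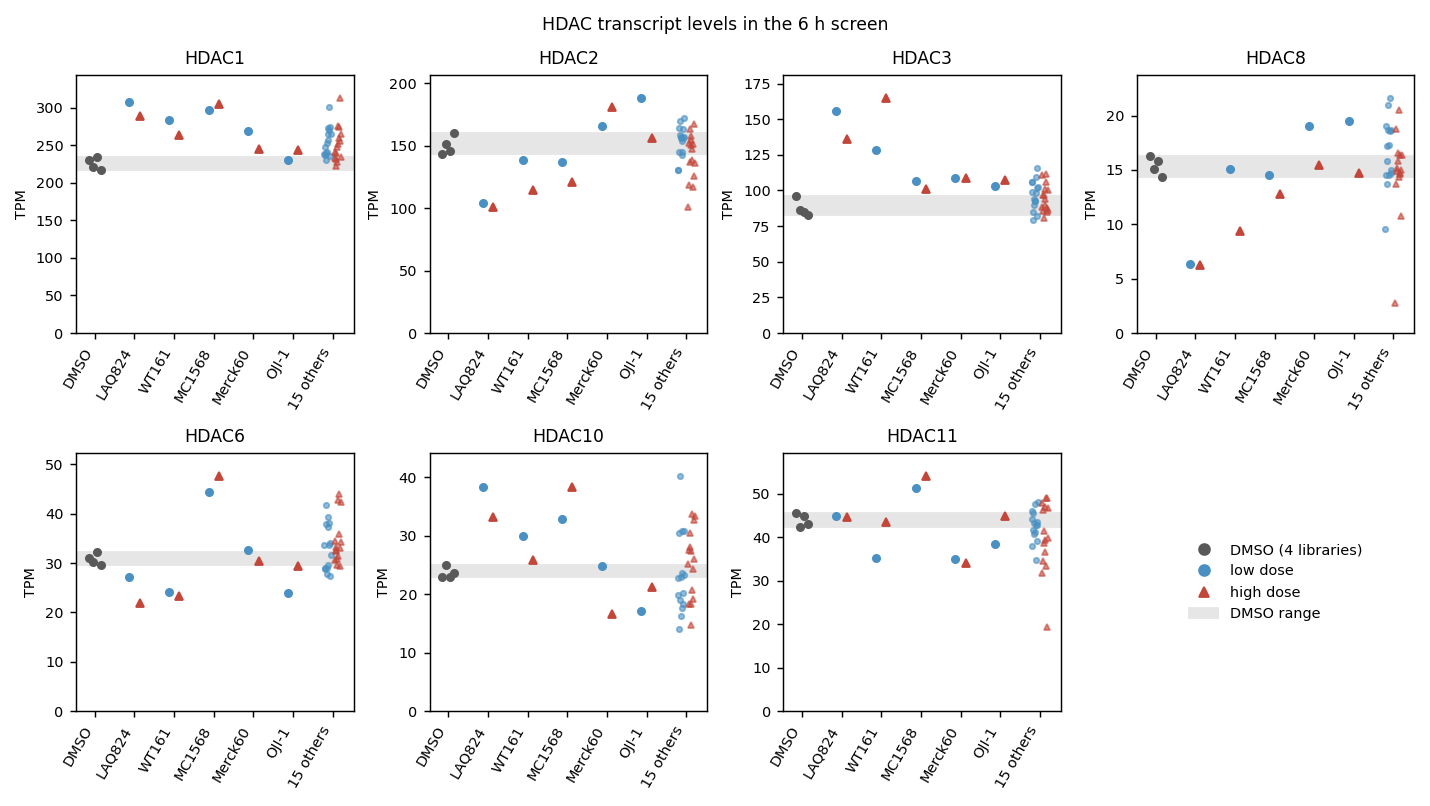
TPM of each of the 7 HDAC genes (linear axes from 0) in the 44 screen libraries, with 4 DMSO libraries, the low and high dose of 5 HDAC inhibitors, and the 30 libraries of 15 other compounds; 1 point is 1 library and the grey band spans the DMSO libraries. HDAC3 is above the band in all 10 HDAC inhibitor libraries, and HDAC8 is near 6.3 TPM at both doses of LAQ824.

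Whether inhibiting an HDAC changed the message of the HDACs themselves was asked first of each inhibitor against DMSO. In log2(TPM + 1), with the 2 doses as the samples of a compound, limma called 10 of 35 member tests at an adjusted p below 0.05, 8 higher and 2 lower, where 21.6% of all tests over the 5 inhibitors were called. They were unevenly spread: LAQ824 had 5 of 7 members called against 53.1% of genes (3 higher, against 28.4%, and 2 lower, against 24.6%), WT161 2 of 7 against 32% and MC1568 3 of 7 against 22.5%. Under MC1568 all 3 were higher, as were 87% of the genes called, and its median over all genes was 0.26 above DMSO. Merck60 and OJI-1 had 0 of 7 each, against 0.116% and 0.171% (19 and 28 genes). The shares of members were thus read against compounds that moved very different parts of the transcriptome. Each p-value rests on the spread between single libraries of 2 doses, pooled over all 20 compounds and the 2 DMSO concentrations. A gene thus has 1 standard error (SE) for all compounds against DMSO, not that of the inhibitor's own doses. For HDAC8 the high dose differed from the low by -1.50 under bromosporin and by -0.02 under LAQ824. Nothing in the labels says that the doses were separate cultures.

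HDAC1, the most abundant member, rose under 3 inhibitors. It was at 308 TPM at 0.5 µM and 290 TPM at 5 µM LAQ824, against 217 to 234 TPM in DMSO. The increase was 1.32-fold, 0.40 ± 0.07 on the log2 scale (± is the SE throughout; limma adjusted p = 6.36e-05). MC1568 gave 297 and 306 TPM at its low and high dose, a log2 difference of 0.42 ± 0.07 (limma adjusted p = 0.000307), while the median of all genes under MC1568 was itself 0.26 above DMSO. WT161 gave 283 and 264 TPM, a log2 difference of 0.28 ± 0.07 (limma adjusted p = 0.0055). All 6 of these libraries were above every DMSO library. For this gap and those given below for other members, the share of all genes was counted only for the pattern of HDAC3. The call for WT161 was lost within its flow cell, where the difference was 0.08 ± 0.06 (limma adjusted p = 0.305). The 22 libraries of other compounds on that flow cell had a median of 259 TPM, and HDAC1 was above DMSO under 15 of 15 other compounds. Merck60, labelled for HDAC1/2, left HDAC1 at 269 and 245 TPM, a log2 difference of 0.19 ± 0.07 that was not called (limma adjusted p = 0.569) and was -0.01 within flow cell. OJI-1 gave 231 and 244 TPM.

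HDAC2, the close paralog of HDAC1 and its partner in the same complexes, moved the other way under LAQ824. It was at 104 and 101 TPM at the low and high dose, below every DMSO library (143 to 160 TPM). The log2 difference was -0.55 ± 0.12 (limma adjusted p = 0.000619), or 0.684-fold, and -0.60 within flow cell. WT161 gave 139 and 114 TPM and MC1568 gave 137 and 121 TPM. These 4 libraries were also below the DMSO range, yet the log2 differences of -0.25 and -0.22 were not called (limma adjusted p = 0.125 and 0.208). Within flow cell MC1568 was called at -0.27 ± 0.07 (limma adjusted p = 0.0312). WT161 was not called within its flow cell (-0.20, limma adjusted p = 0.14). The 22 libraries of other compounds there held between 101 and 164 TPM. Under Merck60 (166 and 181 TPM) and OJI-1 (188 and 156 TPM) 3 of 4 libraries were above DMSO, and neither compound was called.

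HDAC3, the enzyme of the NCoR/SMRT complex, was the 1 member above every DMSO library in all 10 HDAC inhibitor libraries. Its lowest value in the 10 HDAC inhibitor libraries was 101 TPM, above the highest DMSO library at 96.1 TPM, a pattern shared by 1.05% of the 16359 genes. LAQ824 gave 155 and 136 TPM, a log2 difference of 0.73 ± 0.12 (limma adjusted p = 1.98e-05). WT161 gave 128 TPM at 1 µM and 165 TPM at 10 µM, also 0.73 ± 0.12 (limma adjusted p = 7.73e-05), which is 1.66-fold. Both calls held within flow cell, at 0.77 and 0.57. MC1568 (106 and 101 TPM), Merck60 (109 and 108 TPM) and OJI-1 (103 and 107 TPM) were just above the DMSO range. Their log2 differences from DMSO ran from 0.24 to 0.31, none of them called. The 0.24 under MC1568 was below the 0.26 median of all genes under that compound. MC1568 was called within flow cell, at 0.29 ± 0.08 (limma adjusted p = 0.0338), where 49% of genes were called. On the flow cell of WT161, Merck60 and OJI-1 the 22 libraries of other compounds had a median of 97.8 TPM and reached 116 TPM. Against them the differences of Merck60 and OJI-1 were 0.15 and 0.10.

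HDAC8, the cohesin deacetylase and the least abundant member in screen DMSO, had the largest decrease of the 35 tests. LAQ824 left 6.37 TPM at 0.5 µM and 6.26 TPM at 5 µM, against 14.3 to 16.3 TPM in DMSO. The log2 difference was -1.16 ± 0.29 (limma adjusted p = 0.0014), or 0.447-fold, with 188 and 157 reads behind the values, and -1.10 within flow cell. Under WT161 HDAC8 was at 15.1 TPM at 1 µM, within the DMSO range, and at 9.34 TPM at 10 µM, below it. The mean of both doses, -0.34 ± 0.29, was not called (limma adjusted p = 0.387). OJI-1, the compound labelled for HDAC8, gave 19.5 TPM at 1 µM and 14.7 TPM at 10 µM, a log2 difference of 0.13 ± 0.29 that was not called. Merck60 (19.0 and 15.5 TPM) and MC1568 (14.6 and 12.8 TPM) were not called either.

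In class IIb, HDAC6 differed in direction between inhibitors. MC1568 gave 44.5 and 47.6 TPM, above the 29.6 to 32.2 TPM of DMSO, and the log2 difference was 0.57 ± 0.14 (limma adjusted p = 0.00606). WT161, the inhibitor labelled for HDAC6, gave 24.2 and 23.2 TPM, both below every DMSO library. Its log2 difference of -0.36 ± 0.14 missed the threshold (limma adjusted p = 0.0545), and within flow cell it was called at -0.47 ± 0.10 (limma adjusted p = 0.00218). The 22 libraries of other compounds on that flow cell held between 27.3 and 43.9 TPM, so both WT161 libraries were below them too. The share of all genes with these gaps was not counted. LAQ824 gave 27.1 and 22.0 TPM, a log2 difference of -0.32 ± 0.14 (limma adjusted p = 0.0601). OJI-1 (23.9 and 29.5 TPM) and Merck60 (32.6 and 30.5 TPM) were not called.

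HDAC10, the polyamine deacetylase, rose under LAQ824 and MC1568. LAQ824 gave 38.3 TPM at the low and 33.3 TPM at the high dose, a log2 difference of 0.58 ± 0.19 (limma adjusted p = 0.014). MC1568 gave 32.9 and 38.3 TPM, a difference of 0.57 ± 0.19 (limma adjusted p = 0.0346). All 4 libraries were above the 25.1 TPM of the highest DMSO library, and both calls held within flow cell. WT161 gave 30.03 and 25.8 TPM and was not called against DMSO (0.23) or within flow cell (0.35, limma adjusted p = 0.0889). HDAC10 also varied among compounds that do not target HDACs, from 14.1 to 40.1 TPM in 30 libraries, with 0 of 15 compounds called. MAPK12, which overlaps it, lay between 20.7 and 148 TPM over all libraries. Its part in the HDAC10 values was not tested.

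HDAC11, of class IV, was called under 0 of 5 inhibitors against DMSO. LAQ824 left it at 44.9 and 44.8 TPM, inside the 42.3 to 45.6 TPM of DMSO, a log2 difference of 0.03 ± 0.19. The other values ran from 34.1 TPM (Merck60, 10 µM) to 54.0 TPM (MC1568, 10 µM). Within flow cell MC1568 was called at 0.30 ± 0.05 (limma adjusted p = 0.0118), where 49% of genes were called. From screen DMSO, HDAC11 was 0.25 higher under MC1568, against a median of 0.26 over all genes.

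Leaving the doses apart, the log2 differences under LAQ824 at 0.5 and 5 µM were close for HDAC8 (-1.15 and -1.17) and HDAC2 (-0.53 and -0.57). They were smaller at 5 µM for HDAC3 (0.82 and 0.63), HDAC10 (0.68 and 0.48) and HDAC1 (0.45 and 0.36), and further from 0 for HDAC6 (-0.18 and -0.47). With the high doses alone HDAC10 lost its call under LAQ824 and HDAC6 gained one (limma adjusted p = 0.0876 and 0.0332). WT161 showed its larger HDAC3 and HDAC8 differences at 10 µM, 0.91 and -0.66 against 0.55 and -0.02 at 1 µM. With 1 library per dose these dose differences have no test.

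The inhibitors given at the same doses, WT161, MC1568, Merck60 and OJI-1, were then compared directly in 6 pairs, with p-values adjusted over all genes within a pair. WT161 exceeded Merck60 in HDAC3 by 0.42 ± 0.12 and was below it in HDAC2 by -0.46 ± 0.12 and in HDAC6 by -0.40 ± 0.14 (limma adjusted p = 0.00953, 0.00681 and 0.0353). That is 3 of 7 members, with 31.5% of all genes called. WT161 exceeded OJI-1 in HDAC3 (0.46), HDAC10 (0.53) and HDAC1 (0.20) and was below it in HDAC2 (-0.44), 4 of 7 members against 35.1% of genes. These 3 compounds shared a flow cell. Merck60 and OJI-1, labelled for HDAC1/2 and HDAC8, differed in 0 of 7 members, with 1.1% of genes called. For HDAC8 between them the difference was 0.02 with a 95% interval from -0.57 to 0.61. For HDAC1 it was 0.11 with an interval from -0.04 to 0.27. True differences anywhere inside these intervals are compatible with the values.

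MC1568 differed from each of the other 3 in HDAC6, being higher than WT161 (0.93 ± 0.14, limma adjusted p = 1.88e-05), Merck60 (0.53) and OJI-1 (0.77). It was called in 5 of 7 members against Merck60 (18.6% of genes), in 4 of 7 against OJI-1 (36.8%), and WT161 was called in 2 of 7 against it (41.3%). MC1568 was sequenced on another flow cell than the other 3, which cannot be told apart from the compound in these pairs.

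The other 15 compounds gave the background for these changes. Over them 5 of 105 member tests were called, 2 higher and 3 lower, where 4.41% of all tests were called. Bromosporin, a broad bromodomain inhibitor, left HDAC8 at 9.58 TPM at 1 µM and at 2.75 TPM at 10 µM, the lowest library of the screen, with a log2 difference of -1.38 ± 0.29 (limma adjusted p = 0.000837). It also lowered HDAC2, to 130.1 and 101 TPM (-0.38 ± 0.12, limma adjusted p = 0.0175), and 35.8% of genes were called under it. This comparison shares its DMSO libraries with those of the HDAC inhibitors. UNC0638, an inhibitor of the methyltransferases EHMT1 and EHMT2, gave 39.1 TPM of HDAC11 at 1 µM and 19.4 TPM at 10 µM, the lowest value of the 52 libraries. The log2 difference was -0.65 ± 0.19 (limma adjusted p = 0.0276), against 12.1% of genes called. HDAC1 rose under UNC0638 (275 and 313 TPM, 0.38 ± 0.07) and under SGC-CBP30, a CREBBP/EP300 bromodomain inhibitor (301 and 275 TPM, 0.35 ± 0.07), with limma adjusted p = 0.00486 and 0.00831, where SGC-CBP30 had 3.41% of genes called. Both were on the flow cell where HDAC1 was generally high, with no DMSO library to set them against. HDAC3, HDAC6 and HDAC10 were called under 0 of 15.

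**Figure D2:**
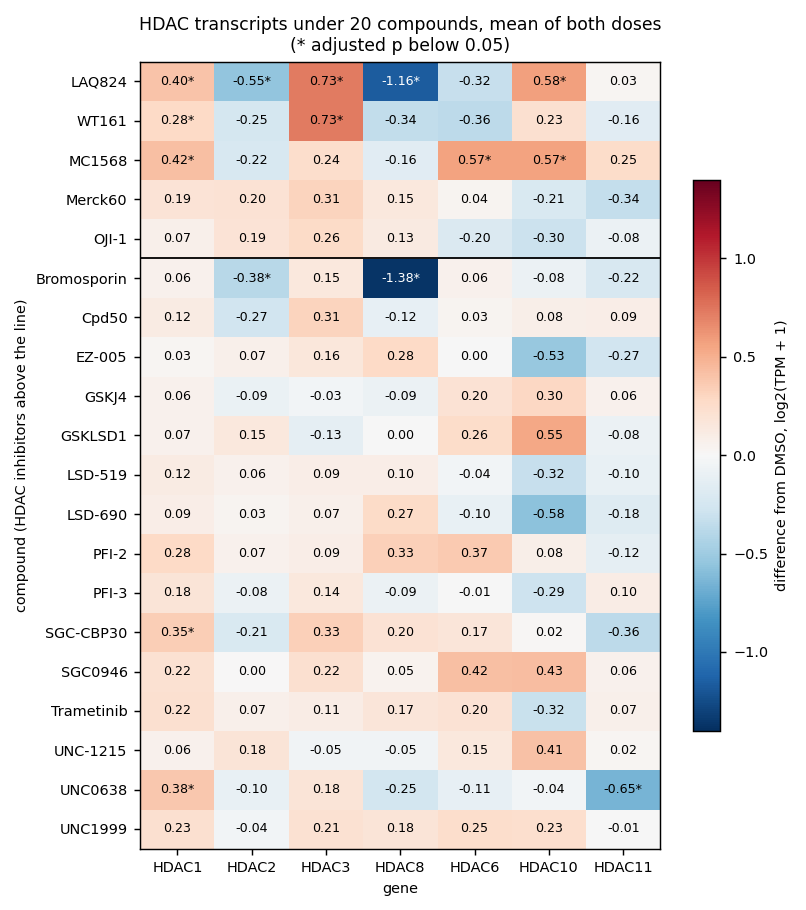
Difference from screen DMSO in log2(TPM + 1), mean of 2 doses, for 20 compounds (rows, HDAC inhibitors above the line) and 7 genes (columns), with * for a limma adjusted p below 0.05. HDAC8 has the 2 deepest values, -1.38 under bromosporin and -1.16 under LAQ824, and HDAC3 its 2 highest, 0.73, under LAQ824 and WT161.

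Set directly against the other compounds, with the 20 compound means as samples, the HDAC inhibitors as a class differed in 0 of 7 members, with 0.00611% of genes called (1 of 16359, and 4042 at an unadjusted p below 0.05). HDAC3 came nearest. Its mean log2(TPM + 1) was 6.92 ± 0.25 over 5 HDAC inhibitors and 6.59 ± 0.13 over 15 other compounds (SD), a difference of 0.33 ± 0.09 (SE, unadjusted p = 0.00132, limma adjusted p = 0.0826). It was called when Merck60 (0.37, limma adjusted p = 0.0297) or OJI-1 (0.38, limma adjusted p = 0.0167) was left out. Without LAQ824, WT161 or MC1568 the difference was 0.26, 0.26 and 0.38 (limma adjusted p = 0.448, 0.274 and 0.0708). Within flow cell C5JW5ACXX, with 3 HDAC inhibitors against 11 other compounds, it was 0.27 ± 0.09 (limma adjusted p = 0.784). For the other 6 members the differences lay between -0.25 (HDAC8) and 0.18 (HDAC10), with limma adjusted p from 0.343 to 0.819.

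Ratios within class I moved under LAQ824, WT161 and MC1568. The ratio of HDAC1 to HDAC2 TPM was 1.35 to 1.61 in the 4 DMSO libraries. It was 2.97 and 2.87 at the low and high dose of LAQ824, 2.18 and 2.52 under MC1568, and 2.04 and 2.31 under WT161. Merck60 (1.63 and 1.35) and OJI-1 (1.23 and 1.57) were near the DMSO range, and the 30 libraries of other compounds ran from 1.37 to 2.49. The ratio of HDAC3 to HDAC8 was 5.36 to 5.90 in DMSO, 24.4 and 21.7 under LAQ824, and 8.51 and 17.6 under WT161. The summed TPM of the 7 genes moved far less, from 570 to 585 in DMSO and from 618 to 684 in the 10 HDAC inhibitor libraries.

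**Figure D3:**
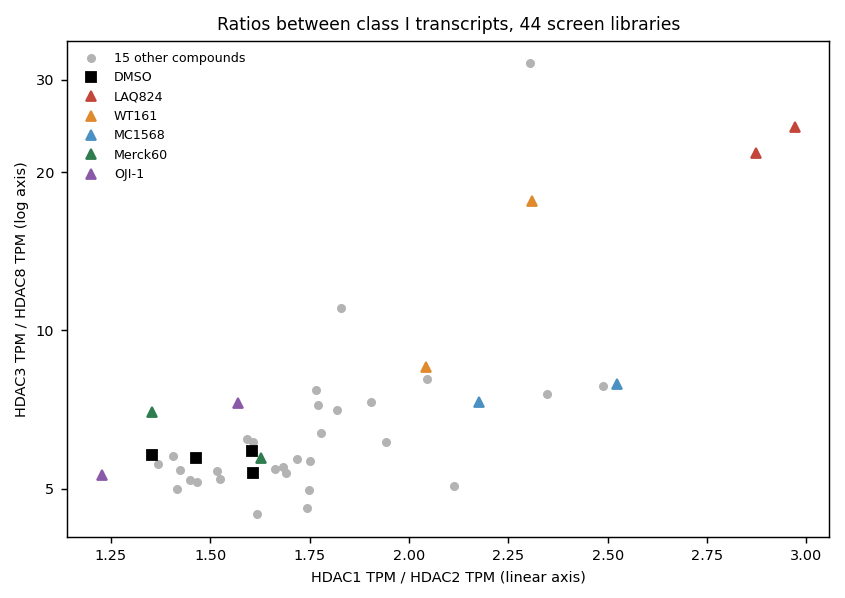
Ratio of HDAC3 to HDAC8 TPM (vertical, log axis) against the ratio of HDAC1 to HDAC2 TPM (horizontal, linear axis) in the 44 screen libraries, 1 point per library. Both LAQ824 libraries lie above 2.8 and 21 on the 2 axes, and the grey point at the top, at 32.2, is a library of another compound, 10 µM bromosporin.

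N1302, a cyclic tetrapeptide HDAC inhibitor, was compared with its own DMSO library without a test, because each had 1 library. Past 1.5-fold were 4 of 7 members, 1 higher (19.9% of all genes) and 3 lower (31.5%), against 51.4% of genes in both directions. HDAC8 was at 38.3 TPM in DMSO and 16.4 TPM under N1302, a log2 difference of -1.17 with a 95% counting interval from -1.37 to -0.98. HDAC2 went from 254 to 157 TPM (-0.68) and HDAC6 from 13.98 to 8.66 TPM (-0.63). HDAC10 went from 4.34 TPM, its lowest value in the 52 libraries, to 11.2 TPM (1.20, with 118 and 214 reads), and HDAC3 from 69.3 to 96.1 TPM (0.47). HDAC1 (216 and 221 TPM) and HDAC11 (43.9 and 46.5 TPM) differed by less than 0.1. All of this rests on a control that stood apart. With the mean of this control and the 6 h time-course DMSO as the reference, HDAC8 was at -0.97 and HDAC6 at -1.30, HDAC10 was at 0.06, HDAC2 at -0.43 and HDAC3 at 0.24. Median-ratio scaling raised every member by about 0.3, to 0.79 for HDAC3, and put HDAC2 (-0.36) and HDAC6 (-0.33) inside 1.5-fold, while it moved the median of all genes from -0.11 to 0.03.

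Entinostat, a benzamide inhibitor of HDAC1, HDAC2 and HDAC3, was followed over time. At 1 h, 0 of 7 members were past 1.5-fold against 2.7% of genes, and the log2 differences lay between -0.09 and 0.15. At 6 h HDAC10 was past it (1 of 7, against 20.1% of genes), at 14.1 TPM against 25.0 TPM in DMSO, a log2 difference of -0.78. The difference turned to 0.36 with the mean of both 6 h RH4-titled DMSO libraries as reference. That mean includes the N1302 control that stood apart, with HDAC10 at 4.34 TPM. At 24 h 3 of 7 members were past 1.5-fold, against 44.2% of genes. HDAC11 was at 50.1, 41.0 and 26.5 TPM at 1, 6 and 24 h under entinostat and at 53.1, 53.2 and 56.0 TPM in the matched DMSO. Its log2 difference at 24 h was -1.05, with a counting interval from -1.16 to -0.94. HDAC3 was at 87.7, 108 and 164 TPM under entinostat and at 93.3, 95.2 and 97.5 TPM in DMSO, and reached 0.74 at 24 h. HDAC10 was at 17.9 TPM at 24 h against 28.7 TPM, a difference of -0.65 that was -0.56, inside 1.5-fold, with median-ratio scaling, which leaves 2 of 7 members past it. HDAC1 (369 against 296 TPM) and HDAC2 (238 against 187 TPM) were 0.32 and 0.35 higher at 24 h, and HDAC6 (42.1 against 42.6 TPM) differed by -0.02. HDAC8, at 26.5 against 31.7 TPM, was -0.25 lower. The intervals cover counting error only, and variation between cultures is not known for these libraries.

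**Figure D4:**
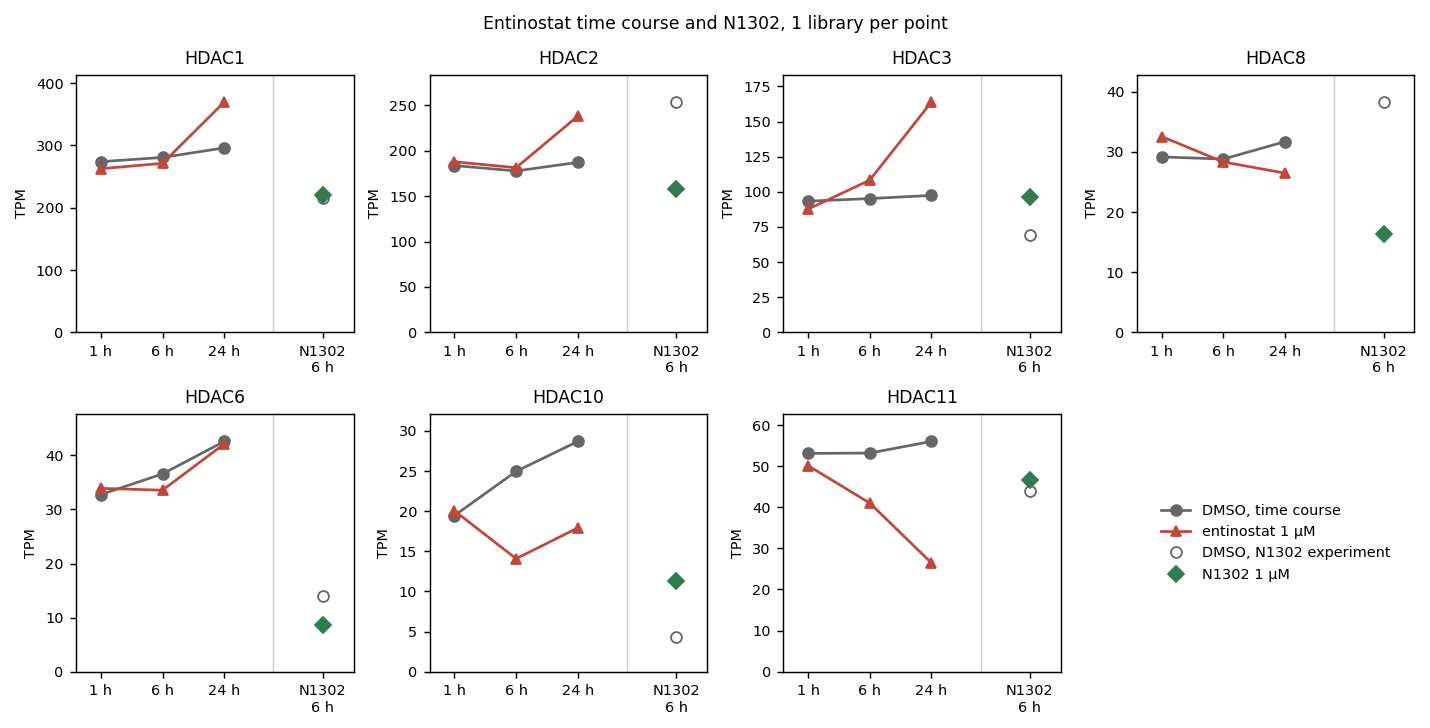
TPM (linear axes from 0) of the 7 genes in the entinostat time course (red triangles) and its DMSO controls (filled circles), lines joining 1, 6 and 24 h, and at right N1302 (diamond) with its DMSO control (open circle), 1 library per point. HDAC3 separates upward and HDAC11 downward by 24 h, and the N1302 control lies far from the time-course controls for HDAC2, HDAC3, HDAC6 and HDAC10.

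Genes for the partners of these enzymes were described by counts beside all genes tested, of which 53.1% were called under LAQ824 (28.4% higher and 24.6% lower), 32% under WT161 and 22.5% under MC1568. These counts and the differences below are from DMSO unless stated, and WT161 had no DMSO library on its flow cell. Of 11 NuRD subunits, LAQ824 had 0 higher and 9 lower, with a median log2 difference of -0.54 against 0.06 over all genes (81.8% of the list called). The methyl-DNA binding family subunit MBD3 fell from 130 to 151 TPM in DMSO to 44.7 and 39.8 TPM. WT161 had 1 NuRD subunit higher, the remodeling ATPase CHD4 (0.47, and 0.41 within flow cell), and 4 lower, with 45.5% called. MBD3 again fell most (-1.87, and -1.34 within flow cell, at 42.4 and 32.8 TPM). Of 12 SIN3 subunits, LAQ824 had 7 higher and 2 lower (75% called, median 0.38), led by ARID4A (1.23) and by the scaffold SIN3A (-0.63). WT161 had 5 higher, led by ARID4A (1.09), and 1 lower, BRMS1L (-0.62), with 50% called and a median of 0.29. MC1568 had 0 NuRD subunits called and 4 SIN3 subunits lower (33.3% called).

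The other complexes held genes in both directions. Of 7 CoREST subunits LAQ824 had 1 higher, HMG20B (0.34), and 3 lower (57.1% called, near its 53.1% of all genes), and WT161 had 2 of 7 lower (28.6%, near its 32%). Of 5 NCoR/SMRT subunits, the partners of HDAC3, LAQ824 had 3 lower and 1 higher (80% called). TBL1XR1 fell to 32.5 and 34.9 TPM from 109 to 126 TPM in DMSO, while GPS2 rose to 239 and 203 TPM from 129 to 134.4 TPM. WT161 had GPS2 higher (0.51) and 2 lower (60% called). Of 3 MiDAC subunits LAQ824 had DNTTIP1 higher (0.81) and 2 lower, led by ELMSAN1 (-1.21), and WT161 had DNTTIP1 higher (0.44, 33.3% called).

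Near HDAC8, in the list of 5 cohesin acetylation genes, RAD21, the cohesin kleisin, fell under LAQ824 from 432 to 452 TPM in DMSO to 142 TPM at both doses (-1.63). ESCO2, which acetylates SMC3, rose to 132 and 147 TPM from 63.2 to 66.7 TPM (1.097). WT161 gave the same directions (-0.67 and 0.87), and each compound had 1 of 5 higher and 2 of 5 lower (60% called). For this list and those that follow, 53.1% of all genes were called under LAQ824 and 32% under WT161. Of 6 HDAC6 partners and substrates, LAQ824 had 1 higher, cortactin (CTTN, 0.36), and 4 lower, led by the VCP cofactor UBXN6 (-0.91), with 83.3% called. WT161, labelled for HDAC6, had 2 higher, led by the chaperone HSP90AB1 (0.28), and 2 lower, led by UBXN6 (-1.08), with 66.7% called. Of 7 polyamine genes, beside HDAC10, the acetyltransferase SAT1 rose from 9.77 to 10.9 TPM in DMSO to 116 and 113 TPM under LAQ824 (3.33) and to 26.4 and 60.6 TPM under WT161 (1.84). Spermidine synthase, SRM, fell under LAQ824 (-0.71) and WT161 (-0.58), the latter not called within flow cell (-0.17). LAQ824 had 4 of these 7 higher and 1 lower (71.4% called), and WT161 2 higher and 1 lower (42.9%).

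Genes of other HDAC classes were counted in the same way. The median log2 difference of 4 class IIa genes was -0.02 under LAQ824 and -0.01 under WT161. Of these 4 genes 1 was lower under each compound, HDAC7 in both cases (25% called, against 53.1% and 32% of all genes). It fell from 123 to 133 TPM in DMSO to 16.9 and 15.3 TPM under LAQ824 (-2.91 ± 0.32, limma adjusted p = 1.41e-07), a larger difference than that of any of the 7 members. WT161 left 64.8 and 19.8 TPM of HDAC7. MC1568, labelled for the class IIa enzymes HDAC4/5, had 0 of 4 class IIa genes called, against 22.5% of all genes. Of 7 sirtuins, the NAD-dependent class III, LAQ824 and WT161 had 4 higher and 1 lower each (71.4% called, against 53.1% and 32% of all genes). SIRT7 rose to 148 and 128 TPM under LAQ824 from 28.1 to 32.3 TPM, the tubulin deacetylase SIRT2 to 173 and 243 TPM under WT161 from 82.5 to 88.4 TPM, and SIRT5 was lower under both (-0.56 and -0.51). Merck60 and OJI-1 had 0 genes called in all 10 lists.

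The genes most like each member over the 20 compound differences were found by Pearson's r among 11121 genes with a mean of at least 5 TPM, the points sharing their DMSO reference and in part a flow cell. XPO7 (0.96), CLINT1 (0.96) and ZNF268 (0.95) were nearest to HDAC8, and RRP36 (0.91), ABCE1 (0.91) and IWS1 (0.90) to HDAC2. PLCG1 (0.92), ULK3 (0.89) and DGCR8 (0.88) were nearest to HDAC6, and AMH (0.93), HGS (0.93) and LCAT (0.92) to HDAC10. For HDAC3 they were SEPHS2 (0.86), GALK2 (0.85) and ICAM3 (0.85), for HDAC11 LIN7B (0.84), LRRC10B (0.83) and CPZ (0.82), and for HDAC1 EOGT (0.79), ZNF34 (0.76) and AGPAT4 (0.73). Between members, HDAC8 and HDAC2 had an r of 0.77 and HDAC3 and HDAC2 one of -0.62. The r values of HDAC8 are weighted to 2 compounds, bromosporin (-1.38) and LAQ824 (-1.16). Its other differences lay between -0.34 and 0.33. HDAC2 was lowest under the same 2 compounds (-0.38 and -0.55).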

How the data were processed

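Poly-A selected RNA of treated FP-RMS cell lines was sequenced, and per the study's methods the authors used STAR for alignment to hg19 and RSEM for quantification. They deposited TPM per gene, which the authors normalized for length and depth without pooling replicates. Samples were grouped from the labels, and flow cells were read from the names of the files. Whole reads were worked out from the TPM steps (tolerance 0.02) in 23645 of 23645 genes above 0, which is 100.0%.

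Values were analyzed as log2(TPM + 1) for 16359 genes that reached a TPM of 1 in 2 or more libraries, a scale that understates changes of low genes. limma (version 3.58.1, R 4.3.3) with Benjamini-Hochberg adjustment over all genes fitted the screen compounds with 21 residual degrees of freedom, the DMSO libraries averaged per concentration, and the 20 compound means with 18. Comparisons with 1 library per group used a fold of 1.5. Python 3.11.15, numpy 2.4.6, pandas 2.3.3, scipy 1.17.1 and matplotlib 3.10.9 did the rest. The fits were tested on simulated data.

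The members and gene lists were chosen with earlier results of these data known. Named genes are the members, for LAQ824 and WT161 the called gene with the largest rise and fall of each partner list, and the 3 genes most like each member; some genes that this rule picks are not reported here. Alternatives were a pseudocount of 0.1, median-ratio scaling over 6316 genes, no filter, a mean TPM of at least 5, single doses, separate DMSO libraries, each DMSO library or inhibitor left out, flow cells apart, no bromosporin or SGC-CBP30, and other DMSO references for the 6 h samples. Added after seeing the data were limma with voom weights on whole reads and the pairs of inhibitors at matched doses.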

Additional observations from a re-analysis of the deposited data

Results flagged for a closer look

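A library far from the others of its kind, by Dixon's ratio of gap to range, was found in 2 of 21 groups checked, where chance gives about 1 in 20. Both concern the DMSO library of the N1302 experiment among the 4 RH4-titled DMSO libraries. HDAC2 was highest there at 7.99 on the log2(TPM + 1) scale, with a gap of 0.854 of the range, and HDAC3 was lowest at 6.14, with a gap of 0.873. This library is the sole control of N1302, on a flow cell of its own experiment. The 7 members in the 4 screen DMSO libraries and over the 5 HDAC inhibitors gave no such flag.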

How the results depend on the processing

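The number of member calls over the 5 screen HDAC inhibitors was 10 and lay between 8 (low doses) and 14 (voom weights on whole reads, added after seeing the data), with 10 to 12 when a DMSO library was left out and 13 within flow cell. Of 130 alternative values of the 10 called results, 126 kept direction and call and 0 reversed. The 4 that lost the call were HDAC1 under WT161 within flow cell (0.08), HDAC10 under LAQ824 at the high dose (0.48), and HDAC6 (0.52) and HDAC10 (0.46) under MC1568 at the low dose. HDAC6 under WT161, -0.36 and not called, was called in 7 of its 13 alternatives. Against other compounds 0 members were called, and 0 to 1 when an inhibitor was left out (HDAC3 without Merck60 or OJI-1). For N1302 and entinostat 8 of 28 values were past 1.5-fold. With scaling 6 were (HDAC2 and HDAC6 under N1302 and HDAC10 under entinostat at 24 h fell inside, HDAC3 under N1302 came past it). With both 6 h DMSO libraries as reference 5 were, and HDAC10 under entinostat at 6 h turned from -0.78 to 0.36. That reference includes the N1302 control, where HDAC10 was at 4.34 TPM.

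Some values that were not called turned direction. Within flow cell HDAC1 (-0.0090) and HDAC6 (-0.073) under Merck60, HDAC1 (-0.12) and HDAC11 (0.072) under OJI-1, and in the class comparison HDAC1 (-0.016), HDAC2 (0.095) and HDAC11 (-0.040) turned. At the high dose HDAC6 under Merck60 (-0.011) and HDAC8 (-0.061) and HDAC11 (0.028) under OJI-1 did, and at the low dose HDAC10 under Merck60 (0.071) and HDAC11 in the class comparison (-0.067). With voom they were HDAC6 under Merck60 (-0.013) and HDAC11 under OJI-1 (0.0035). In the class comparison with an inhibitor left out, HDAC2 ran from -0.17 to 0.018 (without LAQ824) and HDAC11 from -0.032 (without MC1568) to 0.12. The cause was not tested. With the replicate number as a block, 0 members differed between DMSO concentrations, as without it; the numbers share only a flow cell, with a correlation of 0.0719 between same-numbered libraries, and 0 to 0 members were called when a library was left out. Depth limits HDAC8 most, with 52 to 538 reads in the 30 libraries of other compounds, and each compound had 1 library per dose.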
